A study of Homo sapiens with 8 samples.

Results

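The genes described here are 31 of the 20344 genes found in either table of the study. They were chosen by symbol for their known roles, with earlier results of these data known: 18 are ATF4-type genes of the amino acid response, and 13 are endoplasmic reticulum (ER) chaperone genes, a group that also takes in ER-associated degradation genes and the transcription factor XBP1. RNA of H9 cells, an established human embryonic stem cell (hESC) line, was sequenced in 8 libraries of 2 experiments. In the crowding experiment, the control group labelled small held 2 libraries of low-density cells and the crowded group held 2 libraries of cells that could attach only to small drops of Matrigel. In the knockdown experiment, 2 Ctrl libraries carried a control short hairpin RNA and 2 ETV4 KD libraries carried a hairpin against ETV4, a transcription factor of the PEA3 family. All libraries came from the same line, kept on Matrigel in mTeSR1 or TeSR-E8 medium. Which medium each library had and which ETV4 hairpin was used are not given in the sources used here, so effects of ETV4 loss and of the hairpin itself cannot be told apart. The labels do not say whether the libraries of a group were separate cultures. The study states only in general that its experiments were repeated independently, so p-values measure only the spread between these libraries.

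ATF4 is a transcription factor made mainly through translation of its existing mRNA when the initiation factor eIF2 is phosphorylated, as in amino acid shortage or ER stress. Its targets include amino acid transporters, enzymes of serine, asparagine and one-carbon metabolism, and feedback factors such as TRIB3. The unfolded protein response has further branches through XBP1 and ATF6, which raise the chaperones and degradation factors of the ER, and the 2 gene groups are therefore given apart.

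The genes of each table totalled 50359703 to 62410168 reads per library, and the lowest count of any member in any library was 178. All 31 members were in both tables and were tested in both comparisons. ETV4 itself, which checks the knockdown, had 90.8 and 95.1 FPKM (a level that divides fragments by transcript length and by the mapped reads of the library) in Ctrl and 45.6 and 40.9 FPKM in ETV4 KD. In the crowding experiment ETV4 had 73.2 and 72.6 FPKM in small and 54.2 and 53.9 FPKM in crowded. All 9 hESC markers were present in both tables, with summed levels of 3430 to 3654 FPKM in the crowding libraries and 2924 to 3114 FPKM in the knockdown libraries. None of the 9 was called in crowding by edgeR or DESeq2, beside 10.7% of all genes called higher and 5.47% called lower by edgeR. At an unadjusted p under 0.05, 3 were higher and 3 lower there. No share of all genes at an unadjusted p is given, so such counts here and below cannot be set against one. In ETV4 KD 3 were called, beside 5.88% of all genes called higher and 7.10% called lower. DNMT3B went from 354.4 and 358.6 to 211.5 and 191.5 FPKM (log2 fold change -0.82), TDGF1 from 333.2 and 339.8 to 195.3 and 184.2 FPKM (-0.82) and LIN28A from 344.1 and 348.8 to 504.4 and 479.8 FPKM (0.51). Of 6 fibroblast and mesenchymal markers, 4 were in the crowding table and 5 in the knockdown table. Their summed level, mostly THY1, went from 89.3 and 91.8 FPKM in small to 62.5 and 63.9 FPKM in crowded. It went from 133.9 and 135.8 FPKM in Ctrl to 83.1 and 75.5 FPKM in ETV4 KD. A sum led by 1 gene does not measure a share of such cells. PDGFRB went from 2.73 and 2.44 to 0.898 and 0.940 FPKM and from 2.63 and 2.66 to 2.06 and 1.61 FPKM. COL1A2 was called in neither experiment. It had 8.36 and 8.56 FPKM in small and 8.57 and 9.27 FPKM in crowded (log2 fold change 0.02). In the knockdown it had 12.9 and 14.0 FPKM in Ctrl and 10.4 and 8.63 FPKM in ETV4 KD (-0.496). Of 5 neuroectoderm markers, 5 and 4 were in the tables, and their summed level, nearly all of it OTX2, went from 10.9 and 11.4 FPKM in small to 18.3 and 13.5 FPKM in crowded and from 2.63 and 2.94 FPKM in Ctrl to 16.0 and 19.4 FPKM in ETV4 KD. OTX2 was called in ETV4 KD (log2 fold change 2.73) and not in crowding (0.47, edgeR adjusted p = 0.055). SOX1 stayed under 0.1 FPKM in every library, and PAX6 in every crowding library. In crowding edgeR called SOX1 higher (2.27). It called LHX2 lower (-1.55, from 0.121 and 0.105 FPKM in small to 0.0394 and 0.0408 FPKM in crowded). DESeq2 called no neuroectoderm marker there. Of 6 mesendoderm markers, 4 were present in crowding and 3 in the knockdown, and they summed to at most 1.19 FPKM in any library. Of 6 amnion and trophectoderm markers, 2 were present in crowding and 3 in the knockdown. These summed to at most 3.32 FPKM in any library, mostly KRT7. Of the mesendoderm markers FOXA2 was called lower in crowding, from 0.180 and 0.281 FPKM in small to 0.0259 and 0.0403 FPKM in crowded (log2 fold change -2.85). The part of these levels in the results below was not tested.

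Promoter sequences show a short motif of each pathway in some members. RefSeq promoters of GRCh38.p14, each with 250 bases before and 50 after a gene start, were available for 28 of the 31 members. The C/EBP-ATF response element, searched as TGATGNAA on both strands, was in the promoters of 4 of 15 ATF4-type genes (ASNS, CEBPG, CHAC1 and SLC3A2), of 1 of 13 ER chaperone genes (HERPUD1), and of 4.46% of all 27305 genes in the promoter table, or 3.62% of its 35116 promoters. The ER stress response element, searched on both strands as CCAAT and CCACG with 9 bases of any kind between them, was in 6 of 13 ER chaperone genes (CALR, CRELD2, HSP90B1, HSPA5, PDIA6 and XBP1), in none of the 15 ATF4-type genes, and in 0.0916% of all genes, or 0.0769% of all promoters. The core of the unfolded protein response element, TGACGTGG on both strands, was in no member and in 0.927% of all genes, or 0.729% of all promoters. The stretches shown here were taken because their genes stand for the different patterns below, with upstream bases only, 5′ to 3′ on the strand of the gene and the motif in capitals. They are ASNS at chr7:97872429-97872516 (minus strand), CHAC1 at chr15:40953222-40953309 (plus strand), HERPUD1 at chr16:56931926-56932013 (plus strand), HSPA5 at chr9:125241351-125241449 (minus strand), XBP1 at chr22:28800570-28800661 (minus strand) and CRELD2 at chr22:49918514-49918612 (plus strand). In CHAC1, HERPUD1 and CRELD2 the motif lies on the opposite strand. A match is a description of these letters and was not tested as a binding site.
ASNS: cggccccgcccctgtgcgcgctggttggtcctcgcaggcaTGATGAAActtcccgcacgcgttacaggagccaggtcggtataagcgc
CHAC1: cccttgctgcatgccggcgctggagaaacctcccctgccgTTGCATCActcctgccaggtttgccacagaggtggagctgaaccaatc
HERPUD1: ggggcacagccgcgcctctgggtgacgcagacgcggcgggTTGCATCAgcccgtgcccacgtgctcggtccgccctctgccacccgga
HSPA5: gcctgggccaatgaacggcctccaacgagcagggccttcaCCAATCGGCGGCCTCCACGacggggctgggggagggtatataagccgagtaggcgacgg
XBP1: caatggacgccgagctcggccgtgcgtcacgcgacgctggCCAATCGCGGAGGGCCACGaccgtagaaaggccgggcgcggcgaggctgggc
CRELD2: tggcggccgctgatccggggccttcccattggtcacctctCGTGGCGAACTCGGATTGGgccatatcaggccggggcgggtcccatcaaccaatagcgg

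The first question was how the ATF4-type genes stood after ETV4 KD. Of the 18 genes, 15 rose, none fell and 3 did not pass, with every one of the 18 fold changes above 0. A gene was called where the adjusted p of edgeR's quasi-likelihood test was under 0.05 and the log2 fold change was over 0.5 in size. Of all 17879 genes tested, 5.88% were called higher and 7.10% were called lower. At an unadjusted p under 0.05, 17 of the 18 were higher and none was lower, and the Wald test of DESeq2 called 15 higher and none lower. The median log2 fold change of the 18 genes was 0.80, beside -0.0012 over all genes tested.

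Among the transcription factors, ATF5, a relative of ATF4 that is induced in the same response, had 11.0 and 9.87 FPKM in Ctrl and 56.6 and 74.4 FPKM in ETV4 KD. That is a log2 fold change of 2.66 ± 0.15 (SE, n = 2 libraries per group; edgeR adjusted p = 0.00016), the largest rise among the 31 members. DDIT3, which encodes the pro-apoptotic factor CHOP, had 5.82 and 5.67 FPKM in Ctrl and 23.1 and 33.0 FPKM in ETV4 KD, a log2 fold change of 2.26 ± 0.18 (edgeR adjusted p = 0.00037). For both genes the knockdown libraries lay several-fold above the controls and also differed from each other, with the second library higher. CEBPB, a partner of ATF4 in binding DNA, had 5.20 and 6.28 FPKM in Ctrl and 9.16 and 13.6 FPKM in ETV4 KD, a log2 fold change of 0.99 ± 0.17 (edgeR adjusted p = 0.0069).

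The mRNA of ATF4 itself was the most abundant of the 18 in the Ctrl libraries, with 288 and 311 FPKM, and had 345 and 362 FPKM in ETV4 KD. The libraries of the groups did not overlap, but the log2 fold change of 0.26 ± 0.08 missed both thresholds (edgeR adjusted p = 0.052). CEBPG, a dimer partner of ATF4, had a log2 fold change of 0.16 ± 0.08 and was not called (edgeR adjusted p = 0.17). ATF4 protein was not measured in these data.

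The feedback and stress genes were led by TRIB3, a pseudokinase that restrains ATF4 signalling, with 8.76 and 8.55 FPKM in Ctrl and 32.1 and 41.8 FPKM in ETV4 KD. Its log2 fold change was 2.13 ± 0.15 (edgeR adjusted p = 0.00021), and no library of one group came near the other group. CHAC1, which degrades glutathione, had 21.9 and 22.2 FPKM in Ctrl and 42.0 and 55.8 FPKM in ETV4 KD, a log2 fold change of 1.17 ± 0.14 (edgeR adjusted p = 0.0019). SESN2, a sensor that restrains mTORC1 when leucine is low, had 12.2 and 11.0 FPKM in Ctrl and 21.2 and 25.2 FPKM in ETV4 KD, a log2 fold change of 1.00 ± 0.12 (edgeR adjusted p = 0.0016). VLDLR, a lipoprotein receptor, had 10.4 and 9.20 FPKM in Ctrl and 11.7 and 10.9 FPKM in ETV4 KD and was not called.

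All 6 amino acid and one-carbon enzymes rose, by a narrower range than the regulators, from 0.52 to 0.92 on the log2 scale. SHMT2, which moves a carbon unit from serine to folate in mitochondria, had 113.9 and 116.0 FPKM in Ctrl and 208.8 and 222.1 FPKM in ETV4 KD, the largest of the 6 at 0.92 ± 0.08 (edgeR adjusted p = 0.00047). ASNS, which makes asparagine, had 79.1 and 76.3 FPKM in Ctrl and 128.0 and 123.9 FPKM in ETV4 KD, a log2 fold change of 0.71 ± 0.07. MTHFD2, the next folate enzyme in mitochondria, had 70.3 and 65.8 FPKM in Ctrl and 106.5 and 106.2 FPKM in ETV4 KD, a log2 fold change of 0.65 ± 0.07. The 3 enzymes of serine synthesis are PHGDH, PSAT1 and PSPH, in the order of their reactions. PHGDH had 222.1 and 231.2 FPKM in Ctrl and 316.2 and 329.4 FPKM in ETV4 KD, a log2 fold change of 0.52 ± 0.07. PSAT1 had 220.8 and 226.3 FPKM in Ctrl and 342.5 and 366.5 FPKM in ETV4 KD, a log2 fold change of 0.67 ± 0.08. PSPH, the least abundant of the 3, had 22.4 and 23.8 FPKM in Ctrl and 32.7 and 33.9 FPKM in ETV4 KD, a log2 fold change of 0.54 ± 0.09. PHGDH and PSPH lay close to the fold threshold: without the second ETV4 KD library their log2 fold changes were 0.46 and 0.48, and without the first Ctrl library that of PHGDH was 0.499, so neither was then called.

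All 3 amino acid transporters rose as well. SLC7A11, the cystine importer, had 12.3 and 10.7 FPKM in Ctrl and 28.6 and 24.8 FPKM in ETV4 KD, a log2 fold change of 1.22 ± 0.09 (edgeR adjusted p = 0.00032). SLC7A5, the light chain of the large neutral amino acid transporter LAT1, had 89.7 and 93.5 FPKM in Ctrl and 151.2 and 185.9 FPKM in ETV4 KD, a log2 fold change of 0.89 ± 0.11 (edgeR adjusted p = 0.0022). SLC3A2, the heavy chain that pairs with both, had 132.8 and 136.8 FPKM in Ctrl and 198.8 and 239.3 FPKM in ETV4 KD, a log2 fold change of 0.69 ± 0.10 (edgeR adjusted p = 0.0043). In each of these 3 genes the lowest ETV4 KD library lay above the highest Ctrl library.

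The size of the rise varied between the knockdown libraries. In ETV4 KD, 14 of the 18 ATF4-type genes were higher in the second library than in the first, with a median ratio of 1.07 beside 0.959 over all genes tested, and CEBPB had the largest ratio, 1.49. ETV4 was at 45.6 FPKM in the first of these libraries and 40.9 FPKM in the second, and a link between its level and these ratios was not tested. Of the 13 ER chaperone genes, 8 were higher in the second ETV4 KD library, with a median ratio of 1.04. In Ctrl 10 of the 18 ATF4-type genes were higher in the second library, with a median ratio of 1.02 beside 1.01 over all genes tested. Without the second ETV4 KD library the log2 fold changes of ATF5, DDIT3 and TRIB3 were the lowest of any library left out, at 2.42, 1.96 and 1.88, and all 3 stayed called. The neuroectoderm marker OTX2 moved with the knockdown too, from 2.50 and 2.81 FPKM in Ctrl to 15.95 and 19.3 FPKM in ETV4 KD. Its part in the result was not tested. No other neuroectoderm marker was called with OTX2. LHX2 had 0.0677 and 0.108 FPKM in Ctrl and 0.0397 and 0.128 FPKM in ETV4 KD. SOX1 (0.0458 and 0.0151 FPKM in Ctrl, 0.0207 and 0.00492 FPKM in ETV4 KD) was not tested. Nor was ZIC1 (0.0212 and 0.00650 FPKM in Ctrl, 0.0117 and 0.00647 FPKM in ETV4 KD). In bulk RNA, fewer cells of a type and less RNA per cell cannot be told apart.

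**Figure D1:**
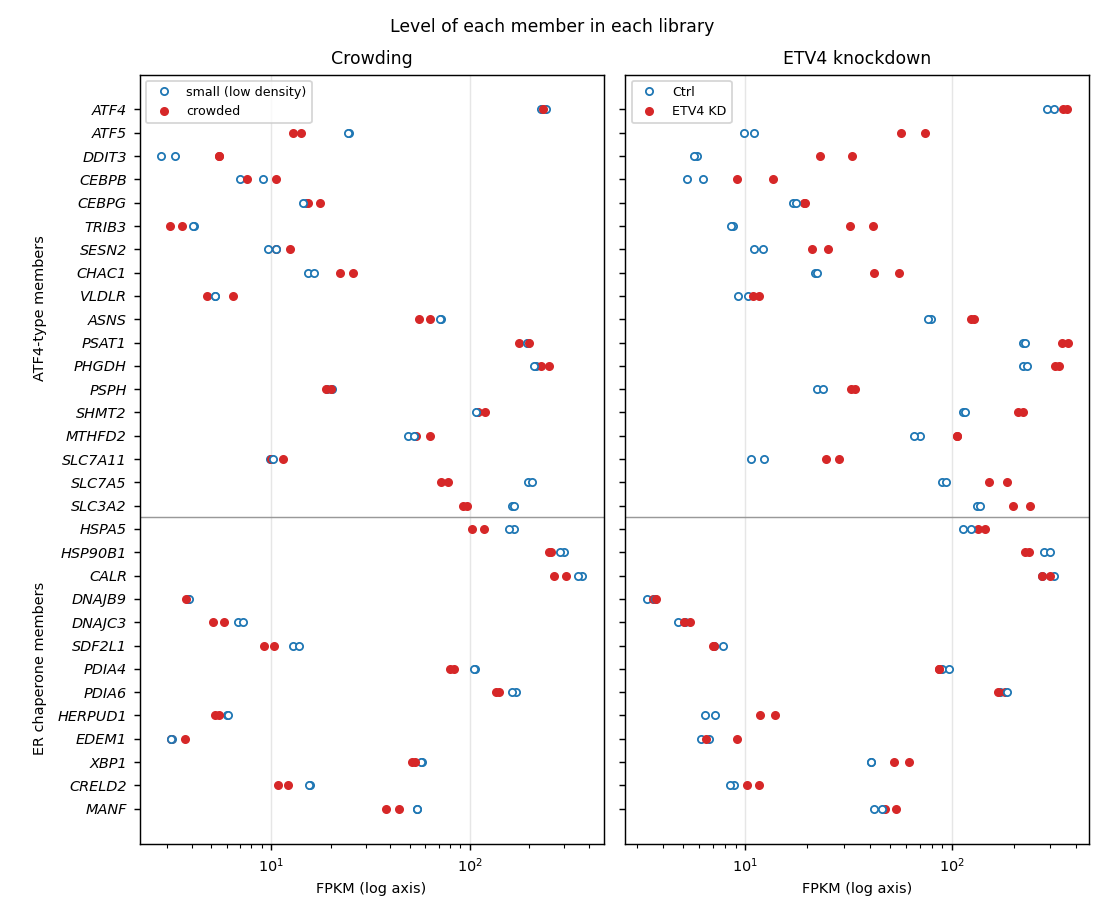
Each row is a member, and each point is its level in 1 library in FPKM on a log axis, for crowding on the left (open, small; filled, crowded) and ETV4 knockdown on the right (open, Ctrl; filled, ETV4 KD), with 2 libraries per group. In the knockdown panel the filled points of the upper block of 18 ATF4-type genes lie to the right of the open points, from 56.6 and 74.4 against 11.0 and 9.87 FPKM for ATF5 to closer pairs for CEBPG.

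Of the 13 ER chaperone genes, 2 rose after ETV4 KD, none fell and 11 did not pass, beside 5.88% of all genes called higher and 7.10% called lower. Their median log2 fold change was 0.10, beside -0.0012 over all genes tested, with 8 values above 0 and 5 below. At an unadjusted p under 0.05, 4 were higher and 1 was lower, and DESeq2 called 2 higher and none lower. HERPUD1, a scaffold of the ER degradation complex, had 6.40 and 7.12 FPKM in Ctrl and 11.8 and 13.95 FPKM in ETV4 KD, a log2 fold change of 0.94 ± 0.12 (edgeR adjusted p = 0.0025). It is also the ER chaperone gene whose promoter above holds the C/EBP-ATF response element, an overlap noticed after its values were seen. XBP1, the transcription factor spliced by IRE1, had 40.6 and 40.5 FPKM in Ctrl and 52.3 and 61.9 FPKM in ETV4 KD. Its log2 fold change of 0.501 ± 0.10 (edgeR adjusted p = 0.014) only just passed the fold threshold and was 0.34 without the second ETV4 KD library and 0.495 without the second Ctrl library, where the call was lost, as it was under 4 of the 6 other settings tried. Unspliced and spliced XBP1 mRNA are not separated in these counts.

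The main chaperones of the ER were not called after ETV4 KD. HSPA5, which encodes BiP, the Hsp70 chaperone of the ER, had 113.4 and 124.5 FPKM in Ctrl and 133.2 and 145.4 FPKM in ETV4 KD, a log2 fold change of 0.23 ± 0.09 (edgeR adjusted p = 0.084). HSP90B1, the Hsp90 of the ER, had 281.0 and 298.2 FPKM in Ctrl and 235.8 and 225.5 FPKM in ETV4 KD, and its log2 fold change of -0.32 ± 0.07 passed the adjusted p (0.014 by edgeR) but not the fold threshold. These 2 abundant chaperones thus had fold changes of opposite sign, neither of which was called. The other 9 uncalled members lay between -0.09 and 0.33 on the log2 scale: the lectin chaperone CALR at -0.03, the co-chaperones DNAJB9, DNAJC3 and SDF2L1 at 0.07, 0.10 and -0.08, the disulfide isomerases PDIA4 and PDIA6 at -0.09 and -0.03, the mannosidase-like degradation factor EDEM1 at 0.28, and the secreted stress proteins CRELD2 and MANF at 0.33 and 0.21. Of those that differed between the experiments or were called in crowding, CRELD2 had 8.83 and 8.48 FPKM in Ctrl and 10.3 and 11.6 FPKM in ETV4 KD, and MANF had 42.2 and 46.0 FPKM in Ctrl and 47.8 and 53.9 FPKM in ETV4 KD. DNAJC3 had 5.11 and 4.74 FPKM in Ctrl and 5.44 and 5.09 FPKM in ETV4 KD, with overlapping groups, and SDF2L1 had 7.10 and 7.80 FPKM in Ctrl and 7.03 and 7.03 FPKM in ETV4 KD.

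The second question was how the same genes stood after crowding. Of the 18 ATF4-type genes, 2 rose, 3 fell and 13 did not pass, beside 10.7% of all 17672 genes called higher and 5.47% called lower. Their median log2 fold change was 0.03, beside 0.0032 over all genes tested, with 10 values above 0 and 8 below. The 3 genes that fell were both chains of LAT1 and ATF5.

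SLC7A5 had 197.3 and 206.0 FPKM in small and 78.1 and 71.9 FPKM in crowded. Its log2 fold change of -1.48 ± 0.05 (edgeR adjusted p = 3.52e-14) was the largest change of the 31 members in crowding. SLC3A2 had 163.9 and 166.6 FPKM in small and 93.1 and 97.5 FPKM in crowded, a log2 fold change of -0.85 ± 0.05 (edgeR adjusted p = 1.20e-10). In both genes the replicate libraries lay close together and the groups far apart. SLC7A11, which pairs with SLC3A2 to import cystine, had 9.91 and 10.2 FPKM in small and 10.04 and 11.5 FPKM in crowded, and it was not called at a log2 fold change of 0.04 ± 0.06 (edgeR adjusted p = 0.66).

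ATF5 had 24.9 and 24.6 FPKM in small and 13.0 and 14.2 FPKM in crowded, a log2 fold change of -0.92 ± 0.07 (edgeR adjusted p = 1.80e-09). DDIT3 had 3.30 and 2.80 FPKM in small and 5.50 and 5.51 FPKM in crowded, a log2 fold change of 0.88 ± 0.16 (edgeR adjusted p = 0.00021). These 2 factors of one response thus went opposite ways with crowding, each without overlap between the groups. CHAC1 had 15.4 and 16.4 FPKM in small and 22.4 and 25.8 FPKM in crowded, a log2 fold change of 0.54 ± 0.08 (edgeR adjusted p = 1.40e-05). Its call was lost without the second crowded library, at 0.44, and without the first small library, at 0.498.

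ATF4 mRNA overlapped between the densities, with 241.0 and 228.3 FPKM in small and 231.9 and 234.6 FPKM in crowded, a log2 fold change of -0.06 ± 0.05 (edgeR adjusted p = 0.35). TRIB3 had 4.13 and 4.09 FPKM in small and 3.10 and 3.59 FPKM in crowded, and its log2 fold change of -0.35 ± 0.11 passed the adjusted p (0.018 by edgeR) but not the fold threshold. CEBPB, CEBPG, SESN2 and VLDLR lay between 0.05 and 0.13 on the log2 scale. Of these, CEBPB had 6.97 and 9.17 FPKM in small and 7.62 and 10.6 FPKM in crowded, and SESN2 had 9.69 and 10.7 FPKM in small and 10.7 and 12.5 FPKM in crowded, with overlapping groups in both. The 6 enzymes were not called either and ranged from -0.31 to 0.16. ASNS was the lowest of them, with 72.1 and 70.9 FPKM in small and 55.5 and 63.5 FPKM in crowded, a log2 fold change of -0.31 ± 0.06 (edgeR adjusted p = 0.00053), and MTHFD2 was the highest, with 48.8 and 52.3 FPKM in small and 53.8 and 63.3 FPKM in crowded. Of the serine enzymes, PHGDH had 216.0 and 211.9 FPKM in small and 229.0 and 251.4 FPKM in crowded, a log2 fold change of 0.11. PSAT1 had 197.1 and 194.4 FPKM in small and 176.8 and 199.8 FPKM in crowded, a log2 fold change of -0.12. PSPH had 19.2 and 20.4 FPKM in small and 19.0 and 20.1 FPKM in crowded, a log2 fold change of -0.08. The groups overlapped for PSAT1 and PSPH. SHMT2 had 108.7 and 108.2 FPKM in small and 110.2 and 119.8 FPKM in crowded, a log2 fold change of 0.03.

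The ER chaperone genes lay lower with crowding, in 12 of 13 cases below 0, with a median log2 fold change of -0.39, beside 0.0032 over all genes tested. By edgeR none rose and 2 fell past the fold threshold, as with DESeq2, beside 10.7% of all genes called higher and 5.47% called lower, and none was higher at an unadjusted p under 0.05. HSPA5 had 166.7 and 158.3 FPKM in small and 118.6 and 102.3 FPKM in crowded, a log2 fold change of -0.61 ± 0.06 (edgeR adjusted p = 1.42e-06). SDF2L1, a co-chaperone in the BiP complex, had 12.9 and 13.9 FPKM in small and 10.4 and 9.27 FPKM in crowded. Its log2 fold change of -0.502 ± 0.11 (edgeR adjusted p = 0.0012) was at the fold threshold, and its call was lost without the second crowded library, at -0.41, or the second small library, at -0.45.

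Most of the other ER chaperone genes had differences smaller than the fold threshold but past the adjusted p. At the adjusted p alone, a rule chosen after the values were seen, 11 of the 13 were lower in crowded and none higher, beside 20.3% of all genes lower. Of the 18 ATF4-type genes, 5 were lower and 3 were higher at that rule. CALR, a calcium-binding lectin chaperone, had 369.5 and 349.0 FPKM in small and 303.9 and 266.6 FPKM in crowded, a log2 fold change of -0.39 ± 0.06. The secreted protein CRELD2 had 15.7 and 15.6 FPKM in small and 12.3 and 10.9 FPKM in crowded, a log2 fold change of -0.495 ± 0.08. MANF, also secreted, had 54.4 and 54.3 FPKM in small and 44 and 38.2 FPKM in crowded, a log2 fold change of -0.46 ± 0.07. In these genes the crowded libraries lay below both small libraries. DNAJC3, the co-chaperone known as p58IPK, had 6.87 and 7.28 FPKM in small and 5.83 and 5.14 FPKM in crowded, a log2 fold change of -0.42 ± 0.07. The isomerases PDIA4 and PDIA6 had -0.42 ± 0.05 and -0.33 ± 0.05, and HSP90B1 had -0.26 ± 0.05. HERPUD1 had 6.03 and 6.12 FPKM in small and 5.49 and 5.25 FPKM in crowded, a log2 fold change of -0.23 ± 0.08. XBP1 had 57.5 and 56.7 FPKM in small and 51.1 and 52.8 FPKM in crowded, a log2 fold change of -0.19 ± 0.06. DNAJB9 and EDEM1 did not pass the adjusted p, at -0.08 ± 0.11 and 0.05 ± 0.09. The count of 2 called genes rests on single libraries: it was 5 without the first crowded library, where DNAJC3, CRELD2 and MANF also passed the fold threshold.

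In the crowded group the 2 gene groups differed between the libraries in opposite ways. Of the ATF4-type genes, 17 of 18 were higher in the second crowded library than in the first, with a median ratio of 1.14, and of the ER chaperone genes 11 of 13 were lower, with a median ratio of 0.948, beside 1.01 over all genes tested. In the small group the median ratios were 0.994 and 0.991. SLC7A5 was the 1 ATF4-type gene lower in the second crowded library, at a ratio of 0.921. What set the crowded libraries apart was not tested.

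**Figure D2:**
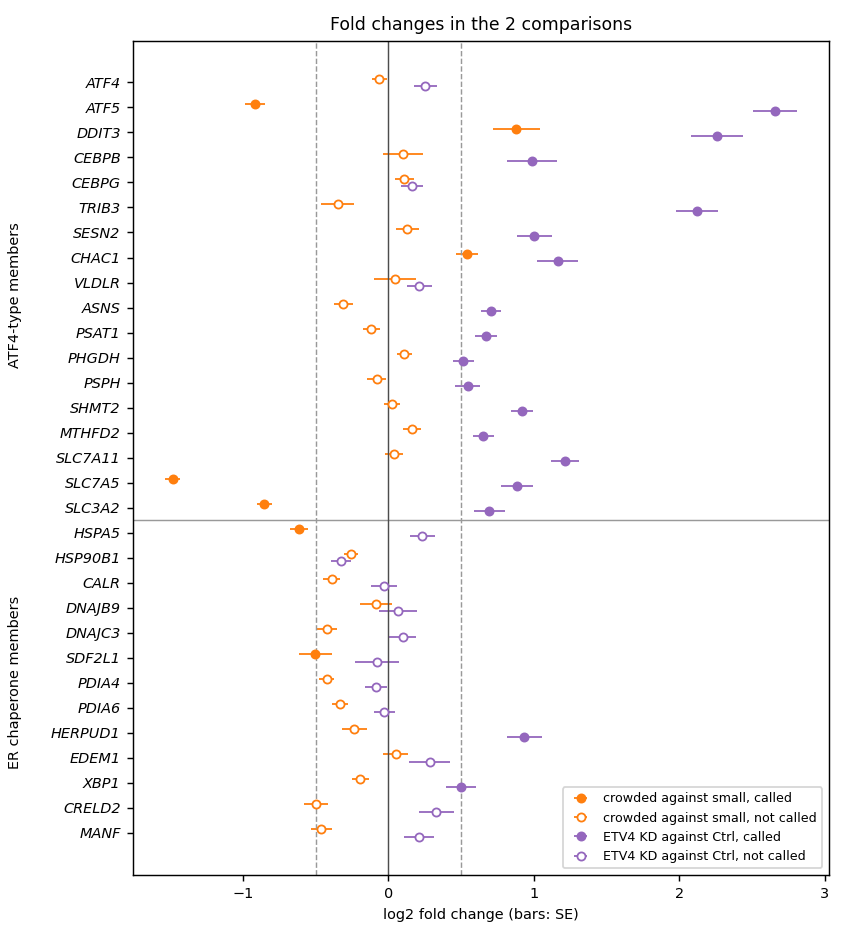
Each row is a member, with its log2 fold change and SE for crowded against small (orange) and for ETV4 KD against Ctrl (purple), 2 libraries per group, filled where called and open where not, and dashed lines at the fold threshold of 0.5 in either direction. SLC7A5 lies at -1.48 in crowding and 0.89 in ETV4 KD, and 12 of the 13 ER chaperone genes lie below 0 in crowding.

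The third comparison tested the difference itself, that is, the log2 fold change in crowding minus that in ETV4 KD, in 1 model over the read counts of all 8 libraries. Of the 31 members, 19 were lower in crowding than in ETV4 KD and none was higher, beside 12.5% of all 17790 genes called lower and 15.0% called higher. These were 13 of the 18 ATF4-type genes and 6 of the 13 ER chaperone genes. No member was higher at an unadjusted p under 0.05 or by DESeq2. The median difference was -0.89 for the ATF4-type genes and -0.43 for the ER chaperone genes, beside 0.00033 over all genes tested.

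The largest difference was that of ATF5, at -3.59 ± 0.18 (edgeR adjusted p = 4.42e-07), followed by TRIB3 at -2.48 ± 0.19 (edgeR adjusted p = 2.90e-06), SLC7A5 at -2.38 ± 0.13 (edgeR adjusted p = 5.25e-07) and SLC3A2 at -1.56 ± 0.12 (edgeR adjusted p = 3.99e-06). ATF5, SLC7A5 and SLC3A2 were the 3 members that fell in crowding and rose in ETV4 KD. DDIT3 and CHAC1 rose in both, by less in crowding, with differences of -1.39 ± 0.23 (edgeR adjusted p = 0.00070) and -0.63 ± 0.18 (edgeR adjusted p = 0.014). Another 8 ATF4-type genes rose in ETV4 KD, were not called in crowding and differed between the experiments: besides TRIB3 these were SLC7A11 at -1.18, ASNS at -1.02, SHMT2 at -0.90, CEBPB at -0.89, SESN2 at -0.88, PSAT1 at -0.79 and PSPH at -0.63. PHGDH and MTHFD2 rose in ETV4 KD and were not called in crowding, but their differences of -0.41 and -0.498 did not reach the fold threshold, and those of ATF4, VLDLR and CEBPG were -0.33, -0.17 and -0.06.

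Among the ER chaperone genes the called differences were those of HERPUD1 at -1.18 ± 0.15 (edgeR adjusted p = 0.00011), HSPA5 at -0.85 ± 0.12 (edgeR adjusted p = 0.00021), CRELD2 at -0.83 ± 0.14, XBP1 at -0.70 ± 0.12, MANF at -0.68 ± 0.13 and DNAJC3 at -0.53 ± 0.12. HSP90B1, which was lower at the adjusted p in both experiments, had a difference of 0.06 ± 0.08 (edgeR adjusted p = 0.60). The other 6 lay between -0.43 for SDF2L1 and -0.15 for DNAJB9. Single libraries decided a few of these calls. That of CHAC1 was lost without the second ETV4 KD library, at -0.38, the first crowded library, at -0.54, or the second small library, at -0.59. That of CEBPB was lost without the first crowded library, at -0.69, the second small library, at -0.77, or the first Ctrl library, at -0.82, and that of DNAJC3 without the second crowded, second small or second Ctrl library, at -0.43, -0.49 and -0.47. MTHFD2 was gained without the second crowded, first small, first Ctrl or first ETV4 KD library, at -0.59, -0.52, -0.54 and -0.53.

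The control groups of the experiments stood at different levels for some of these genes, and the tables were normalised separately, so the levels are set side by side without a test. SLC7A5 was at 197.3 and 206.0 FPKM in small and at 89.7 and 93.5 FPKM in Ctrl, and ATF5 at 24.9 and 24.6 FPKM in small and 11.0 and 9.87 FPKM in Ctrl. TRIB3 went the other way, with 4.13 and 4.09 FPKM in small and 8.76 and 8.55 FPKM in Ctrl, as did DDIT3, with 3.30 and 2.80 FPKM in small and 5.82 and 5.67 FPKM in Ctrl. The difference between the experiments therefore compares changes from unlike starting levels.

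**Figure D3:**
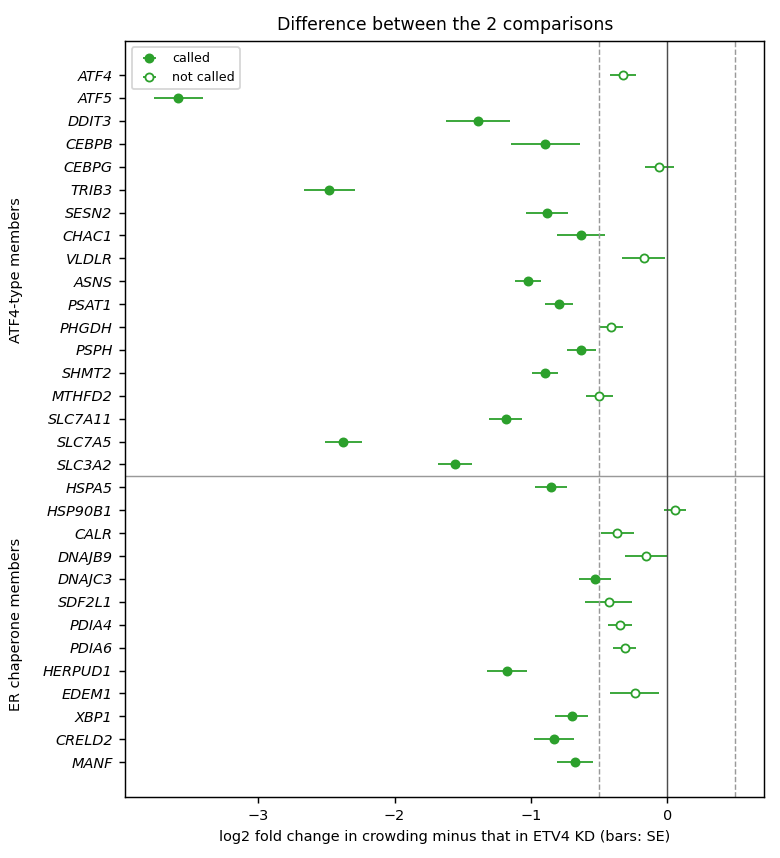
Each row is a member, with the log2 fold change in crowding minus that in ETV4 KD and its SE from 1 model of 8 libraries, filled where called and open where not, and dashed lines at the fold threshold of 0.5 in either direction. ATF5 at -3.59, TRIB3 at -2.48 and SLC7A5 at -2.38 lie farthest from 0, and HSP90B1 at 0.06 is the 1 member above 0.

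Genes of the same pathways outside the 31 were taken from lists chosen with earlier results of these data known. Over all genes tested, 5.88% were called higher and 7.10% lower in ETV4 KD, and 10.7% higher and 5.47% lower in crowding. Of 27 other ATF4-type genes, 12 rose and none fell in ETV4 KD, with a median log2 fold change of 0.52. The largest of those rises among genes with a mean of at least 1 FPKM in either group were DDIT4, an inhibitor of mTORC1, at 1.37 (25.3 and 25.8 FPKM in Ctrl, 58.7 and 72.4 FPKM in ETV4 KD), PPP1R15A, the eIF2 phosphatase subunit GADD34, at 1.27 (7.43 and 7.45 FPKM in Ctrl, 14.9 and 20.7 FPKM in ETV4 KD), and SLC1A4, a neutral amino acid transporter, at 1.16 (0.590 and 0.592 FPKM in Ctrl, 1.10 and 1.53 FPKM in ETV4 KD), which reached that level in ETV4 KD and not in Ctrl. In crowding 2 of the 27 rose and 1 fell, with a median of 0.0011. DDIT4 rose there too, by 1.55 (11.3 and 10.6 FPKM in small, 27.9 and 39.0 FPKM in crowded), and so did CTH, a cysteine synthesis enzyme, by 0.65, while SLC1A4 fell by 0.87.

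The cytosolic aminoacyl-tRNA synthetases, which load amino acids onto tRNA, included 4 of 18 that rose and none that fell in ETV4 KD. Of all genes tested there, 5.88% were called higher and 7.10% lower. The median of the 18 was 0.32. None was called in crowding by edgeR or DESeq2, and the median there was -0.08. By edgeR 10.7% of all genes were called higher in crowding and 5.47% lower. At an unadjusted p under 0.05, 5 of the 18 were higher and 8 lower there, without a share of all genes to set beside them. The largest rises were WARS1 at 0.99 (57.2 and 59.0 FPKM in Ctrl, 108.8 and 122.5 FPKM in ETV4 KD), SARS1 at 0.63 and CARS1 at 0.62. Of 36 other ER folding and degradation genes, 3 rose and none fell in ETV4 KD, with a median of 0.03: the Hsp70-like HSPA13 at 0.59, and the degradation factors EDEM2 at 0.53 and DERL2 at 0.50. In crowding none of the 36 rose and 2 fell, beside 10.7% of all genes called higher and 5.47% called lower, with a median of -0.21. The 2 were SEC61A1, the channel through which new proteins enter the ER, at -0.68, and PPIB, an ER prolyl isomerase, at -0.54. SEC61A1 had 85.3 and 85.6 FPKM in small and 57.6 and 53.4 FPKM in crowded. At the adjusted p alone, a rule chosen after the values were seen, 20 of the 36 were lower in crowded and 2 higher, beside 20.3% of all genes lower. Of 6 sensors and activating proteases of the unfolded protein response, ATF6B rose by 0.56 in crowding and none was called in ETV4 KD by edgeR or DESeq2, where at an unadjusted p under 0.05, 1 was higher and 1 lower.

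**Figure D4:**
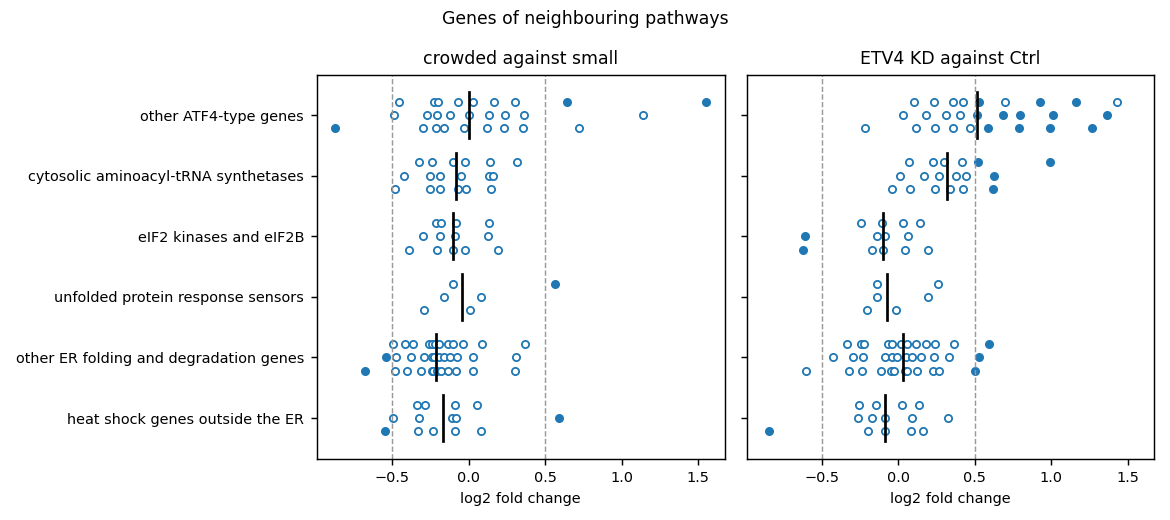
Each point is the log2 fold change of 1 gene in 1 of 6 lists that hold none of the 31 members, for crowded against small (left) and ETV4 KD against Ctrl (right), filled where called, with the list's median as a black bar and dashed lines at 0.5 in either direction. The other ATF4-type genes have a median of 0.52 in ETV4 KD and 0.0011 in crowding, and the other ER folding and degradation genes one of -0.21 in crowding.

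Positions of some of the members, chosen after their values were seen, are given from GENCODE's annotation lifted to GRCh37: ATF5 at chr19:50431959-50437192, DDIT3 at chr12:57910371-57915520, TRIB3 at chr20:343479-378203, SLC7A5 at chr16:87863629-87903113, SLC3A2 at chr11:62623476-62656352, HSPA5 at chr9:127997132-128003661 and HERPUD1 at chr16:56966054-56978776. The spans of 16 of the 31 members overlap another annotated gene, and whether the authors counted reads by strand is not stated, so such counts are less certain. DDIT3 overlaps MARS1 and MBD6 on the opposite strand and another protein-coding gene and a microRNA gene on the same strand. The log2 fold changes of MARS1 were 0.27 in ETV4 KD and -0.02 in crowding. ATF5 overlaps NUP62, IL4I1 and another protein-coding gene on the opposite strand, and a microRNA gene on the same strand. The log2 fold changes of NUP62 were -0.13 in ETV4 KD and -0.12 in crowding. Those of the other overlapping genes are not given here. TRIB3, SLC3A2, HSPA5, ATF4 and CHAC1 overlap no other annotated gene. The near-identical copy SLC7A5P2 had at most 570 reads in a library, beside at least 22302 for SLC7A5.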

How the data were processed

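RNA of 8 libraries was sequenced by the authors from stranded poly-A preparations. Reads were trimmed (Trimmomatic), aligned to the GRCh37 build (HISAT2 2.1.0) and assigned to known transcripts (StringTie 2.1.3b). Per the file headers, the authors deposited 1 table per experiment with the read counts of each gene in each library, not normalised, and FPKM values. The deposited tables also hold 16 further columns of per-library values, and the authors' own group means, fold changes and p-values, none of which was used.

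Counts were tested with edgeR 4.0.16 in R 4.3.3 (filterByExpr, TMM, robust quasi-likelihood test, Benjamini-Hochberg adjustment over all genes tested), each experiment in its own table, and the difference between experiments on the counts of genes in both tables. SE was taken as the size of the log2 fold change over the root of its F statistic. A call needed an adjusted p under 0.05 and an absolute log2 fold change over 0.5. Levels are the deposited FPKM. The common biological coefficient of variation was 6.83% in crowding and 9.93% in ETV4 KD. At the lowest member count, 178 reads, the counting error is 7.50%, so it limits the lowest members as well.

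The 31 members and the other lists were chosen with earlier results of these data known. Every member was named, with levels in every library for those called and for ATF4, DDIT3, HSPA5 and XBP1, and from other lists the 3 largest called changes in each direction with a mean of at least 1 FPKM in either group. Some cell type markers outside that rule, such as SOX1, LHX2, FOXA2 and COL1A2, were named as well. The labels do not say whether libraries with the same replicate number were paired, and the main fits did not pair them. As alternatives, each library was left out in turn, the replicate number entered as a block, the filter dropped or raised to at least 10 counts per library, the normalisation changed to that of DESeq2, the test changed to the Wald test of DESeq2 1.42.0, and limma 3.58.1 run on log2(FPKM + 0.5) where the mean reached 0.5 FPKM. The test was run on simulated counts with a common dispersion, in which 200 genes were raised by a log2 fold change of 1. That run did not check calls near the fold threshold.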

Additional observations from a re-analysis of the deposited data

How the results depend on the processing

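No alternative changed the direction of a member that was called. With limma on log2(FPKM + 0.5), 1717 genes were called in crowding in place of 2851. The count of ER chaperone genes called in crowding, 2, was 1 without a filter on low counts, 1 with at least 10 counts in every library and 1 with limma on FPKM, each time without SDF2L1, and 1 to 5 with each library left out. In ETV4 KD the count of 2 was 1 with DESeq2's size factors, with at least 10 counts in every library, with the replicate block and with limma on FPKM, each time without XBP1, and 1 to 2 with each library left out. Uncalled members changed sign with a library left out, with log2 fold changes from -0.14 to 0.30 for CEBPB, -0.18 to 0.24 for VLDLR, -0.026 to 0.081 for SHMT2, -0.052 to 0.13 for SLC7A11 and -0.067 to 0.16 for EDEM1 in crowding, from -0.13 to 0.064 for CALR and -0.067 to 0.020 for PDIA6 in ETV4 KD, and differences from -0.15 to 0.030 for CEBPG and -0.40 to 0.025 for VLDLR.

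With the replicate block, 2874 genes were called in crowding, 2901 in ETV4 KD and 5056 for the difference, beside 2851, 2321 and 4890 without it. Deviations of libraries with the same number correlated at -0.041 in crowding and 0.086 in ETV4 KD. With 2 libraries per group these values cannot decide whether such libraries were paired. No scaling moved the median of all genes by over 0.1 on the log2 scale. With 2 libraries per group, differences near the fold threshold of 0.5 could fall on either side of it.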

Other observations

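Heat shock genes outside the ER, in the cytosol or mitochondria, also lay mostly below 0 in crowding, in 11 of 14 cases, with a median log2 fold change of -0.17. At the adjusted p alone, a rule chosen after the values were seen, 7 of the 14 were lower and 1 higher, beside 20.3% of all genes lower. Of the 14, 1 rose and 1 fell in crowding, beside 10.7% of all genes called higher and 5.47% called lower. The small heat shock protein HSPB1 had 42.6 and 48.4 FPKM in small and 71.1 and 71.4 FPKM in crowded, a log2 fold change of 0.59. The constitutive Hsp70 gene HSPA8 had 1209 and 1206 FPKM in small and 913.5 and 803.0 FPKM in crowded, a log2 fold change of -0.55. In ETV4 KD HSPE1, the co-chaperonin of mitochondria, was the 1 gene of the list called, beside 7.10% of all genes called lower. It had 335.2 and 370.9 FPKM in Ctrl and 191.9 and 199.0 FPKM in ETV4 KD, a log2 fold change of -0.85.

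Of 13 genes for eIF2 kinases, eIF2B subunits and their partners, none was called in crowding by edgeR or DESeq2. By edgeR 10.7% of all genes were called higher in crowding and 5.47% lower. At an unadjusted p under 0.05, 3 were higher and 5 lower there. By edgeR's quasi-likelihood test 2 of the 13 fell in ETV4 KD, beside 7.10% of all genes called lower. These were EIF2AK2, the kinase PKR, with 14.8 and 13.1 FPKM in Ctrl and 10.4 and 7.75 FPKM in ETV4 KD (log2 fold change -0.62), and GCN1, which activates the amino acid sensing kinase GCN2, with 34.8 and 30.8 FPKM in Ctrl and 23.5 and 19.5 FPKM in ETV4 KD (log2 fold change -0.61).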
